A study of Mus musculus with 8 samples.

Results

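The genes described here are 10 components of bone morphogenetic protein (BMP) and transforming growth factor beta (TGF-beta) signalling: the ligands Bmp2 and Bmp4, the receptors Bmpr1a, Bmpr2 and Tgfbr2, the inhibitory SMADs Smad6 and Smad7, and the target genes Id1, Id2 and Id3. They were picked by symbol, through their Ensembl identifiers, from the 45706 genes of the count tables. The rule has no threshold on expression, but the genes were proposed with earlier results of these data known. All 10 were found, and 9 of them had enough reads to be tested, as had 14491 genes in all.

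The counts come from RNA-Seq of freshly isolated intestinal crypts, the pockets of the gut lining in which new epithelial cells are born. Untreated wild-type C57BL/6N mice gave 4 libraries of small intestinal (SI) and 4 of colonic (COL) crypts, with 1 library of each tissue per mouse. The labels number the donor mice 1, 2, 3 and 5, in the order of library numbers 1 to 4, and name the mice behind libraries 1 and 4 as female and the others as male. Their age is not given in the sources used here. The libraries are whole-crypt preparations released with EDTA, so each value is an average over stem, progenitor and differentiated cells. The study compared these oncogene-naive crypts alongside its work on SI and COL organoids that express mutant BRAF and p53.

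BMPs bind type I and type II receptor kinases such as Bmpr1a and Bmpr2, which phosphorylate SMAD1, SMAD5 and SMAD8/9. TGF-beta binds Tgfbr2, which recruits Tgfbr1 and acts through SMAD2 and SMAD3. Both branches share SMAD4, and both induce the inhibitory SMADs, which switch the receptors off. In the intestine BMP signalling is known to be low at the crypt base, where antagonists from the surrounding stroma block it, and to rise toward the surface, where it restrains stem cells and favours differentiation. The Id genes, which encode helix-loop-helix proteins without a DNA-binding domain, are classical direct targets of the BMP branch.

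In these crypts, 3 of the 9 tested genes differed between the tissues. The type II TGF-beta receptor Tgfbr2 was 4.77-fold higher in COL, while Id2 was 3.15-fold and the type I BMP receptor Bmpr1a 1.84-fold higher in SI. Calls rest on the quasi-likelihood test of edgeR, with a threshold of 0.05 on p-values adjusted over all 14491 genes by Benjamini-Hochberg. That is 33.3% of the tested members, beside 28.4% of all genes tested, 15.5% higher in SI and 12.9% higher in COL, so the share is near the background. The median log2 fold change (SI over COL) was 0.37 over the 9 genes and -0.09 over all genes tested.

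The library totals ranged from 15969428 to 32908060 counts. Levels are given as CPM, the counts put on the scale of a library of fixed size after its total was scaled by TMM, the trimmed mean of M-values. The TMM factors were 0.727 to 0.798 in SI and 1.01 to 1.45 in COL. With library size alone the median of all genes went from -0.09 to -0.82 (log2) and the split of called genes went from 2253 higher in SI and 1863 higher in COL to 1115 and 4788. Directions below are therefore relative to the bulk of genes. Transcripts of the mitochondrial genome took 4.83% to 50.8% of counts. The share was below 15% in SI1, SI4, COL3 and COL4 and above it in the others. The SI1 library stood apart from the other SI libraries: the stem cell marker Lgr5 had 14 counts there, against 127 to 220 in the others, and the summed Paneth cell markers were at 256 CPM, against 1358 to 2904. The epithelial markers were high everywhere, with a sum of 3744 to 11950 CPM over 5 genes. The fibroblast markers summed to 0.272 to 6.78 CPM over 6 genes. Of these, Dcn, Col1a1 and Col1a2 stayed at or below 2.22, 1.24 and 3.05 CPM.

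Levels of different genes were compared per length, as TPM, which divides counts by exon length and gives every library the same sum. This scale has no TMM factor and is used here mainly to order genes within a tissue. In SI the order of mean TPM was Id3 (308.5), Id1 (196.7), Id2 (45.0), Bmpr1a (11.6), Smad7 (6.74), Bmp2 (4.04), Bmpr2 (1.90), Smad6 (1.82), Tgfbr2 (0.957) and Bmp4 (0.113). The ranges of neighbours overlapped for Id3 and Id1, for Bmpr1a, Smad7 and Bmp2, and for Bmpr2 and Smad6. Within every SI library, though, Id3 was above Id1 and Bmpr1a above Smad7. In COL the order was Id1 (267.3), Id3 (237.1), Id2 (25.2), Bmpr1a (10.4), Tgfbr2 (7.92), Smad7 (6.32), Bmp2 (4.85), Smad6 (2.86), Bmpr2 (2.39) and Bmp4 (0.0651). There the ranges overlapped between each pair of neighbours except Id3 with Id2 and Bmpr2 with Bmp4. Within every COL library Bmpr1a was above Tgfbr2 and Smad6 above Bmpr2. With the longest transcript as length, however, the COL means were 2.58 for Smad6 and 2.79 for Bmpr2. Tgfbr2 thus took rank 9 of 10 in SI and rank 5 in COL.

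**Figure D1:**
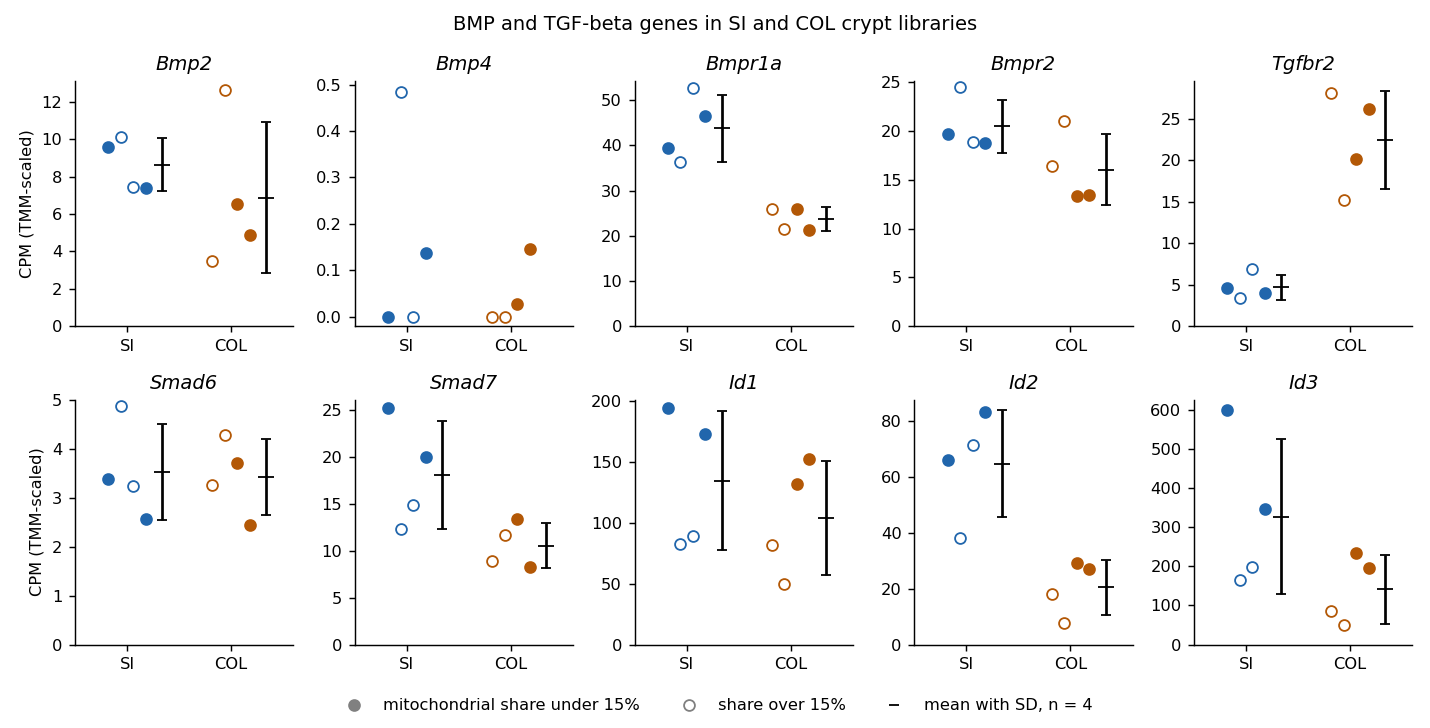
CPM (vertical axes, linear) of the 10 genes in each SI and COL library, with the mean and SD of 4 libraries beside the points except for Bmp4, which had at most 8 counts in a library. The points of both tissues are apart for Bmpr1a, Tgfbr2 and Id2 and overlap for the others, and for Id1 and Id3 the filled points (mitochondrial share under 15%) lie above the open ones within each tissue.

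Both ligands are genes of the BMP branch. Bmp2 (ENSMUSG00000027358, chr2:133552159-133562885, plus strand, GRCm38) is a ligand that the differentiated intestinal epithelium is known to make. It was at 9.60, 10.1, 7.45 and 7.37 CPM in SI1 to SI4 and at 3.46, 12.6, 6.53 and 4.86 CPM in COL1 to COL4. The COL values enclosed all of the SI values, and COL2 was the highest of the 8 libraries. The SI mean was 8.63 ± 1.42 and the COL mean 6.87 ± 4.03 CPM (SD, n = 4), and the log2 fold change of 0.34 (SE 0.41, edgeR adjusted p = 0.578) did not pass the threshold. SI was higher in 3 of 4 mice. With library size alone the sign turned (-0.32).

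Bmp4 (ENSMUSG00000021835, chr14:46383520-46390669, minus strand) is known mainly as a ligand of the stroma below the epithelium. It had 0, 8, 0 and 3 counts in SI1 to SI4 and 0, 0, 1 and 7 in COL1 to COL4, or 11 counts in SI and 8 in COL in all. It lay below the filter on low counts and was not tested in the main comparison, and no difference was detectable at this depth. In addition, 89 exonic bases of Bmp4 overlap Gm15217 on the opposite strand, and reads of that stretch cannot be assigned without strand. Bmp2 supplied 97.5% ± 3.33 of the summed TPM of both ligands in SI and 98.7% ± 2.19 in COL (SD, n = 4).

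Among the receptors, Tgfbr2 (ENSMUSG00000032440, chr9:116084293-116175360, minus strand) had the largest difference of the 10 genes. It encodes the receptor kinase that binds TGF-beta itself. Its level was 4.58, 3.38, 6.84 and 3.98 CPM in SI1 to SI4 and 28.1, 15.2, 20.1 and 26.2 CPM in COL1 to COL4. The COL libraries all lay above the SI libraries. The means were 4.70 ± 1.51 (SI) and 22.4 ± 5.89 (COL) CPM (SD, n = 4), and the log2 fold change was -2.25 (SE 0.33, edgeR adjusted p = 0.000438). COL was higher in all 4 mice, with log2 differences within a mouse from -2.69 to -1.54. The difference was -2.08 between libraries whose mitochondrial share was above 15% and -2.40 between those below it. It passed the threshold under every alternative run.

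Tgfbr2 is also transcribed in endothelium, stroma and lymphocytes, so markers of these cells are given beside it. The endothelial list summed to 0.137 to 4.83 CPM in SI and 3.34 to 11.3 CPM in COL, and Pecam1, 1 of 2 of its 5 genes that could be tested, was higher in COL (log2 fold change -2.69, edgeR adjusted p = 0.0248). Vwf, the other tested gene of that list, had 0, 6, 32 and 0 counts in SI1 to SI4 and 69, 88, 111 and 131 in COL1 to COL4. Its log2 fold change of -2.73 went the same way but did not pass (edgeR adjusted p = 0.0963). Cdh5, another defining endothelial gene, was at 0 in 3 libraries of each tissue. Kdr, also below the filter, had 0, 36, 0 and 0 counts in SI1 to SI4 and 1, 7, 3 and 4 in COL1 to COL4. Emcn, below the filter too, had 0, 21, 0 and 0 counts in SI1 to SI4 and 2, 0, 8 and 1 in COL1 to COL4. Both were thus highest in SI2. The fibroblast list summed to 0.272 to 5.50 CPM in SI and 1.20 to 6.78 CPM in COL, with 0 of 4 tested genes past the edgeR threshold (Col1a1 had an adjusted p of 0.161). The leukocyte list went the other way, with 37.3 to 83.9 CPM in SI and 10.6 to 31.7 CPM in COL. The part of other cells in the Tgfbr2 difference was not tested, and fewer cells of a type and less RNA per cell cannot be told apart in these libraries.

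The stretch upstream of the Tgfbr2 start is shown because this gene had the largest difference, and that of Smad6, a BMP-induced gene on the same chromosome, is shown because its levels overlapped between the tissues. Both are the 250 bases before the RefSeq start site (GRCm38.p6), at chr9:116175364-116175613 and chr9:64022060-64022309, 5′ to 3′ on the minus strand. They hold no annotated exon. Capitals mark matches to GTCT, the core of the SMAD-binding element, or to its reverse complement AGAC.

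Tgfbr2 upstream: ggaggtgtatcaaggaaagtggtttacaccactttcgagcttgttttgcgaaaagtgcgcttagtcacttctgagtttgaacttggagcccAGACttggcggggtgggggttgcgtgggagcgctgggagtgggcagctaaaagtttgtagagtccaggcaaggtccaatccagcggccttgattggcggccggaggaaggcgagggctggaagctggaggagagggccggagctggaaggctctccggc

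Smad6 upstream: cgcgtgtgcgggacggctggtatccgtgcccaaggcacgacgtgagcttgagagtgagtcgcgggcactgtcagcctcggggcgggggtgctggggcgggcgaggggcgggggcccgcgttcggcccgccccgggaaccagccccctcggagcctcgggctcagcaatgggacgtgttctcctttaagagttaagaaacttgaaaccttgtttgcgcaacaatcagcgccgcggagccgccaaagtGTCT

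Each of the 2 windows holds 1 match, where 82.9% of 32841 RefSeq promoter windows of this length hold at least 1 on either strand, with a median of 2. The GC-rich SMAD1/5 motif GGCGCC, which reads the same on both strands, is in neither window. It occurs once each in the Bmpr1a, Bmpr2 and Id2 windows and in 9.59% of all windows. All 250 bases of the Bmpr2 window lie in annotated Bmpr2 exons, while the Bmpr1a and Id2 matches lie outside exons. Promoter windows were matched for 7 of the 10 genes, and Bmp2, Id1 and Smad7 had no entry. A match is a description of the letters and says nothing of binding in these cells.

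Bmpr1a (ENSMUSG00000021796, chr14:34410734-34503341, minus strand) encodes the main type I receptor for BMP2 and BMP4 in the intestinal epithelium. It was at 39.4, 36.3, 52.7 and 46.6 CPM in SI1 to SI4 and at 26.0, 21.6, 25.9 and 21.3 CPM in COL1 to COL4. The tissues did not overlap. The means were 43.7 ± 7.37 and 23.7 ± 2.61 CPM (SD, n = 4), with a log2 fold change of 0.88 (SE 0.23, edgeR adjusted p = 0.0143), and SI was higher in 4 of 4 mice. The difference was as large between libraries above 15% mitochondrial share (0.88) as between those below it (0.86).

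The Bmpr1a call was lost without SI4 (0.84, adjusted p = 0.0607), without a filter on low counts (0.83, adjusted p = 0.118) and with library size alone (0.13, adjusted p = 0.711, or 0.95 above the median of all genes). On the TPM scale, which has no TMM factor, its means were 11.6 in SI and 10.4 in COL. Of its exonic bases, 290 overlap the antisense gene Gm17110, and 4.08% of the 50-base stretches of its longest transcript also occur in another gene.

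Bmpr2 (ENSMUSG00000067336, chr1:59763400-59879014, plus strand), the type II partner that activates Bmpr1a, was at 19.8, 24.5, 18.9 and 18.8 CPM in SI1 to SI4. In COL1 to COL4 it was at 16.4, 21.01, 13.4 and 13.4 CPM. SI was higher in 4 of 4 mice but the ranges overlapped, because COL2 exceeded all SI libraries except SI2. The log2 fold change of 0.36 (SE 0.25, edgeR adjusted p = 0.330) did not pass the threshold and turned to -0.36 with library size alone.

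The balance of the receptors within a library does not depend on library scaling. Per 100 TPM of Bmpr1a there were 9.01, 7.24, 10.1 and 6.63 TPM of Tgfbr2 in SI1 to SI4 and 83.9, 54.8, 60.1 and 95.4 TPM in COL1 to COL4. These ratios were chosen after the values were seen and are given without a test. Every COL library lay far above the SI libraries, at 73.5 ± 19.3 against 8.24 ± 1.59 (SD, n = 4). Per 100 TPM of Tgfbr1, the type I partner of Tgfbr2, the values were 40.6 ± 22.5 in SI and 144.5 ± 36.8 in COL (SD, n = 4), also without overlap. Tgfbr1 itself had a log2 fold change of -0.26 (edgeR adjusted p = 0.544).

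**Figure D2:**
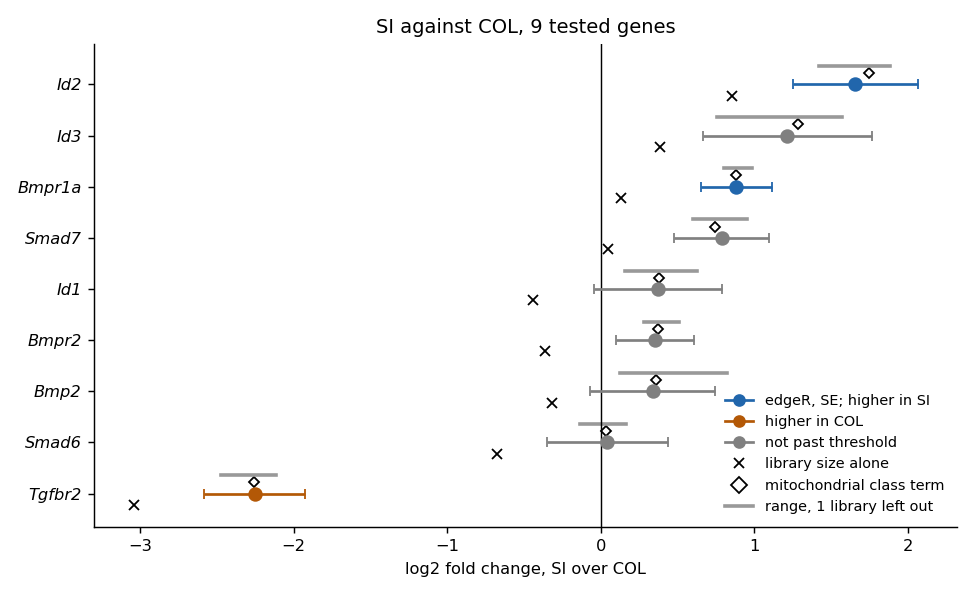
Log2 fold change, SI over COL, of the 9 tested genes with its standard error (circles), beside the values with library size alone (crosses), with the mitochondrial share class as a term (diamonds) and the range when 1 library is left out (grey bars). Tgfbr2 stays below 0 in every case, and Id2 and Bmpr1a stay above 0, whereas Bmp2, Bmpr2, Id1 and Smad6 fall below 0 with library size alone.

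The inhibitory SMADs are feedback genes of the pathway: Smad6 acts mainly on BMP receptors and Smad7 on both branches. Smad6 (ENSMUSG00000036867, chr9:63953076-64022059, minus strand) was at 3.40, 4.89, 3.24 and 2.56 CPM in SI1 to SI4 and at 3.26, 4.29, 3.72 and 2.45 CPM in COL1 to COL4. The ranges coincided almost entirely. The log2 fold change was 0.04 (SE 0.39, edgeR adjusted p = 0.947), and its sign turned under 6 of 16 alternatives, so no direction is given.

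Smad7 (ENSMUSG00000025880, chr18:75367529-75395935, plus strand) was at 25.2, 12.3, 14.9 and 20.01 CPM in SI1 to SI4 and at 8.86, 11.6, 13.3 and 8.21 CPM in COL1 to COL4. SI was higher in 4 of 4 mice, and the ranges overlapped only through SI2 and COL3. The log2 fold change of 0.79 (SE 0.31) had an edgeR p of 0.0265 and an adjusted p of 0.0788, which missed the threshold. Without SI2 it was 0.95 with an adjusted p of 0.0436. The differences within mice were uneven, at 1.499 and 1.275 (log2) in mice 1 and 5 and 0.08 and 0.16 in mice 2 and 3.

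Smad7 was the more abundant of the inhibitory SMADs per length, at 77.3% ± 9.63 of their summed TPM in SI and 68.4% ± 3.08 in COL (SD, n = 4). The log2 ratio of Smad6 to Smad7 differed by -0.72 between SI and COL (exact permutation test, 2-sided, p = 0.171, adjusted p = 0.257 over 6 gene pairs).

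By mean TPM the Id genes ranked highest of the 10 in both tissues, although Id2 and Bmpr1a overlapped in COL. Id3 varied most between mice among the 9 tested genes, with a coefficient of variation of 60.4% in SI and 62.0% in COL. Id1 (ENSMUSG00000042745, chr2:152736251-152737410, plus strand) was at 194.1, 82.3, 89.0 and 172.8 CPM in SI1 to SI4 and at 81.7, 49.4, 131.8 and 152.6 CPM in COL1 to COL4. The tissues overlapped widely. The log2 fold change was 0.37 (SE 0.42, edgeR adjusted p = 0.545) and turned to -0.44 with library size alone.

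Id2 (ENSMUSG00000020644, chr12:25093799-25097140, minus strand) was at 66.0, 38.1, 71.5 and 83.6 CPM in SI1 to SI4 and at 18.1, 7.58, 29.3 and 27.1 CPM in COL1 to COL4. All SI libraries were above all COL libraries. The means were 64.8 ± 19.2 and 20.5 ± 9.88 CPM (SD, n = 4), and the log2 fold change was 1.66 (SE 0.41, edgeR adjusted p = 0.0106). SI was higher in 4 of 4 mice, by 1.29 to 2.32 on the log2 scale. The call was lost with library size alone (0.85, adjusted p = 0.144, or 1.68 above the median of all genes).

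Id2 is also strongly expressed in innate lymphoid cells and some T cells. Of the leukocyte markers, Cd3e, Cd8a and Itgam were higher in SI, 3 of the 4 that could be tested, and Ptprc was at 11.3 to 23.6 CPM in SI and 5.67 to 12.0 CPM in COL. The enterocyte markers of the small intestine, which define that tissue, were also higher in SI, at 11260 to 30020 CPM against 6.84 to 40.5 CPM in COL. Within SI their sum was highest in SI1 and Id2 was highest in SI4, while both were lowest in SI2. The part of these cells in the Id2 and Bmpr1a differences was not tested.

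Id3 (ENSMUSG00000007872, chr4:136143497-136145755, plus strand) was at 599, 164.9, 198.7 and 346.4 CPM in SI1 to SI4. In COL1 to COL4 it was at 85.3, 49.8, 233.2 and 196.8 CPM. The tissues overlapped, since COL3 exceeded SI2 and SI3, and SI1 was far above all others. The log2 fold change of 1.21 (SE 0.55) had an edgeR p of 0.0493 and an adjusted p of 0.124. SI was higher in 3 of 4 mice, with differences of 2.81, 1.73 and 0.82 (log2) in mice 1, 2 and 5 and -0.23 in mouse 3. Without SI1 the log2 fold change was 0.76. It passed the threshold with the mitochondrial share class as a term (1.28, adjusted p = 0.00418) and in limma-voom with the donor mouse as a block (1.33, adjusted p = 0.0388), but not with that block in edgeR.

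**Figure D3:**
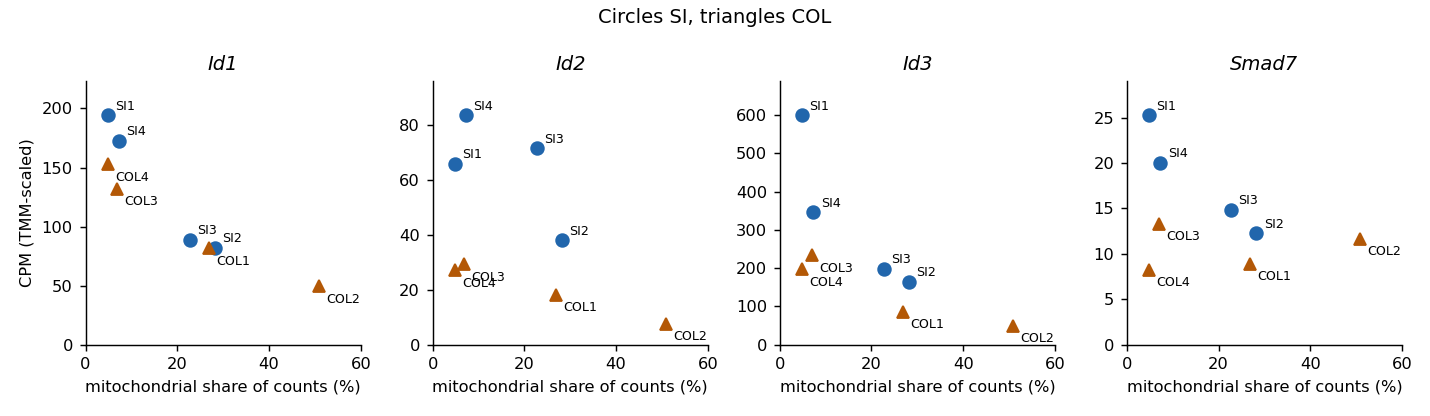
CPM (vertical axes, linear) of Id1, Id2, Id3 and Smad7 against the mitochondrial share of counts in percent, with SI libraries as circles and COL libraries as triangles. Within each tissue Id1 and Id3 are higher in both libraries with a share under 15%, and all SI values of Id2 lie above all COL values.

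Id1 and Id3 moved with the mitochondrial share of the libraries. In both tissues the libraries with a share under 15% were above those with a larger share for these 2 genes, as they were for 15.4% of all genes tested. The low-share libraries had 2.14-fold (SI) and 2.17-fold (COL) more Id1 and 2.60-fold and 3.18-fold more Id3. For Id2 the folds were 1.36 and 2.20, with separation in COL only, and for Smad7 they were 1.67 and 1.05, with separation in SI only. For Bmpr1a and Tgfbr2 the folds lay between 0.837 and 1.07. In SI both low-share libraries came from female mice, so there the share and the sex of the mice cannot be told apart. In COL each class held 1 female and 1 male mouse. The COL means by sex were 141.0 CPM in females and 141.5 CPM in males for Id3 and 117.1 and 90.6 CPM for Id1. Each of these means pools 1 library of each class. For Id3 these were at 85.3 and 196.8 CPM in females and 49.8 and 233.2 CPM in males. The part of the mitochondrial share in the Id values was not tested.

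**Figure D4:**
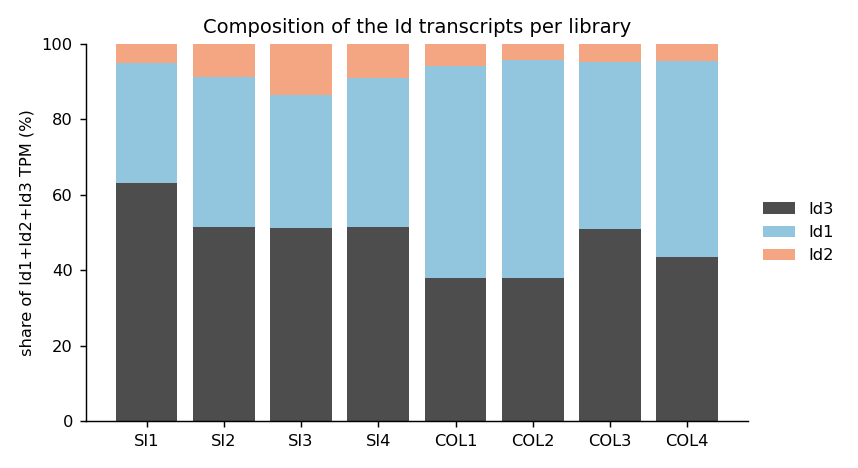
Stacked bars give the share (percent, axis from 0 to 100) of Id1, Id2 and Id3 in their summed TPM in each library. Id1 takes 31.6% to 39.7% in the SI libraries and 44.4% to 58.0% in the COL libraries.

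The mixture of Id transcripts within a library does not depend on how libraries are scaled. Id1 made up 36.6% ± 3.86 of the summed Id TPM in SI and 52.7% ± 6.01 in COL, Id3 54.3% ± 5.95 and 42.6% ± 6.17, and Id2 9.12% ± 3.44 and 4.81% ± 0.758 (SD, n = 4). The shares of Id1 and of Id3 did not overlap between the tissues, although Id3 in COL3 (50.9%) came close to the lowest SI library (51.1%). The log2 ratio of Id1 to Id2 was 1.01 ± 0.51 in SI and 2.38 ± 0.26 in COL, a difference of -1.37 in the same direction in 4 of 4 mice (SD, n = 4; exact permutation test, 2-sided, p = 0.0286). The ratio of Id1 to Id3 was -1.20 ± 0.30 in SI and -0.32 ± 0.37 in COL, a difference of -0.88, also in 4 of 4 mice (exact permutation test, p = 0.0286).

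That p is the smallest that 4 against 4 libraries allow, and over the 6 gene pairs compared both adjusted values were 0.0857, which misses the threshold. The permutation test does not use the pairing by mouse. An exact sign-flip test, which keeps the libraries of a mouse paired, gave p = 0.125 (adjusted p = 0.25) for both ratios. The ratio of Id2 to Id3 differed by 0.49 (exact permutation p = 0.314, adjusted p = 0.377), that of Bmpr1a to Bmpr2 by 0.50 (p = 0.171, adjusted p = 0.257) and that of Bmp2 to Bmp4 by -0.06 (p = 0.914, also when adjusted), and the last changed sign with an offset of 1 CPM.

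Counting values that do not overlap between tissues, 3 of the 9 tested genes were separated (Bmpr1a, Tgfbr2 and Id2), beside 33.5% of all genes tested. Across the 8 libraries, the members were most like different genes. Likeness was measured as the root mean square difference of centred log2 CPM over the 8 libraries, with 9365 genes compared. Tgfbr2 was nearest to Dynll1 (0.23) and Mknk2 (0.25), Bmpr1a to Met (0.14) and Ipo8 (0.14), and Id2 to Prdx1 (0.20) and Rab5c (0.20). Id1 was nearest to Nucb1 (0.14) and Stard3 (0.15), Id3 to Nfkbib (0.20) and Sec22a (0.21), and Bmp2 to Prkce (0.19) and Recql5 (0.21). Smad7 was nearest to Fam76a (0.12) and Pdlim5 (0.15), Bmpr2 had Zfp148 (0.10) among its nearest genes, and Smad6 was nearest to Zfp873 (0.13) and Tfeb (0.14). Among the members, Id1 and Id3 were nearest to each other (0.53), as were Bmpr1a and Smad7 (0.37) and Bmpr2 and Smad6 (0.27). Tgfbr2 stood farthest from the rest, with Smad6 nearest at 1.28. These distances also reflect how much each gene varies over the libraries. The SD of log2 CPM was 1.26 for Tgfbr2, about its distance to Smad6. It was 0.31 for Bmpr2 and 0.33 for Smad6, not far above the distance between them.

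The other genes of the pathway were taken from a list of 62 ligands, receptors, antagonists, SMADs, regulators and targets. Of these, 35 could be tested and 15 passed the threshold, 10 higher in SI and 5 higher in COL. That is 42.9%, beside 28.4% of all genes, and the median log2 fold change was 0.27. With library size alone the split turned to 3 higher in SI and 11 higher in COL. Without SI1 there were 12, with 6 in each direction, and without COL4 there were 9. The counts by role below rest on 3 to 10 tested genes each and stand beside the same 28.4% of all genes.

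Among the genes listed as ligands, 2 of the 6 tested passed. Bmp3, an atypical BMP that counteracts the others, was higher in COL, at 28.3 to 67.2 CPM against 3.49 to 10.7 CPM in SI (log2 fold change -2.61, edgeR adjusted p = 0.000691). Bmp1, a procollagen proteinase that is no BMP ligand in spite of its name, was higher in SI, at 19.3 to 41.1 CPM against 1.76 to 5.91 CPM (2.93, adjusted p = 0.000535). The TGF-beta ligands Tgfb1, Tgfb2 and Tgfb3 were below the filter, with at most 17 counts in a library.

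Of the receptors, 2 of 7 passed. Acvr2a, a type II receptor for activins and some BMPs, was higher in SI, at 13.0 to 30.9 CPM against 5.99 to 7.83 CPM in COL (1.597, edgeR adjusted p = 0.00289). Acvrl1, a type I receptor known from endothelium, was higher in COL, at 1.61 to 4.76 CPM against 0.227 to 0.913 CPM (-2.70, adjusted p = 0.00847), beside the endothelial markers given above. Of the 12 extracellular antagonists, 3 could be tested. Nog, Grem1 and Chrdl2, stromal inhibitors of BMPs, had at most 6 counts in any library. Fstl1 passed (3.67, edgeR adjusted p = 0.0263) on 9 to 73 counts in SI and 0 to 19 in COL, with CPM ranges that overlapped. Its log2 difference was 4.91 between libraries above 15% mitochondrial share and 1.27 between those below it.

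Of the SMADs that carry the signal, 2 of 5 passed, both higher in SI. These were Smad1 of the BMP branch, at 74.7 ± 12.96 CPM against 41.6 ± 7.02 CPM (SD, n = 4, log2 fold change 0.85, edgeR adjusted p = 0.0244), and the shared Smad4, at 57.4 to 87.6 CPM against 31.9 to 53.3 CPM (0.81, adjusted p = 0.0398). On the TPM scale, which has no TMM factor, the means were closer, at 19.9 in SI and 18.1 in COL for Smad1. For Smad4 they were 30.4 and 27.7. Smad2, Smad3 and Smad5 had log2 fold changes of 0.71, 0.36 and -0.21 and did not pass.

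Of the intracellular and membrane negative regulators, 5 of 10 tested genes passed. Skil, a co-repressor that TGF-beta induces, was at 68.1 to 175.3 CPM in SI and 17.3 to 40.2 CPM in COL (2.33, edgeR adjusted p = 0.00127). Smurf2, a ubiquitin ligase for receptors and SMADs (0.94, adjusted p = 0.0144), Ppm1a, a SMAD phosphatase (0.97, adjusted p = 0.0132), and Fkbp1a, which holds type I receptors inactive (0.80, adjusted p = 0.0433), were also higher in SI. Mean TPM of Smurf2, Ppm1a and Fkbp1a was 8.84, 5.99 and 25.5 in SI and 7.84, 5.20 and 24.4 in COL. Tgif1, a co-repressor of SMAD2 and SMAD3, was higher in COL (-1.75, adjusted p = 0.00357). Bambi, a decoy receptor, had a log2 fold change of -2.03 and missed the threshold (adjusted p = 0.0582).

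Of the further targets, 3 of 4 passed. Thbs1, an activator of latent TGF-beta that TGF-beta itself induces, was at 10.7 to 29.4 CPM in COL and 0.302 to 0.406 CPM in SI (-6.10, edgeR adjusted p = 9e-06), with 5 to 8 counts in the SI libraries. Atoh8, a BMP target, was higher in COL at 1.08 to 3.41 CPM against 0 to 0.504 CPM (-3.15, adjusted p = 0.0256). Cdkn2b, a cell cycle inhibitor that TGF-beta induces, went the other way, at 18.8 to 45.3 CPM in SI and 7.25 to 16.8 CPM in COL (1.18, adjusted p = 0.0315).

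**Figure D5:**
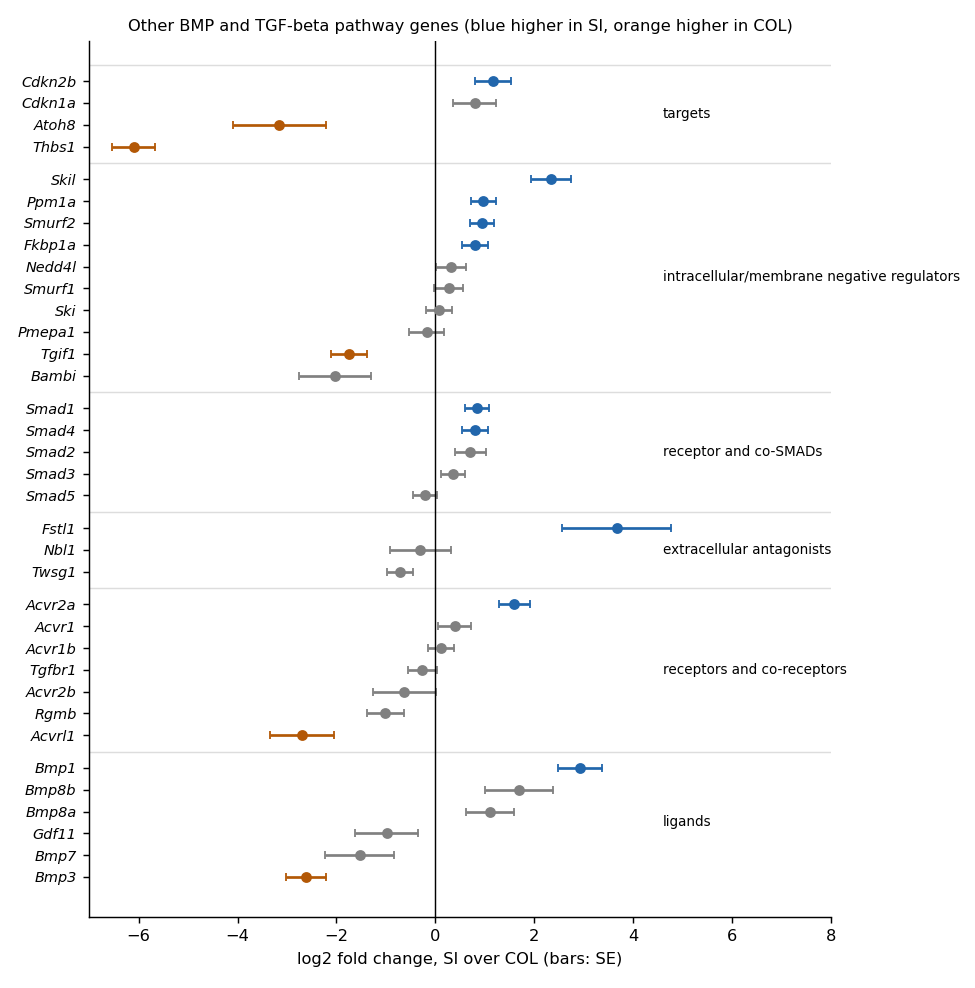
Log2 fold change, SI over COL, with its standard error for the 35 tested genes of the wider list, grouped by role (blue higher in SI, orange higher in COL, grey not past the threshold). The values run from -6.10 (Thbs1) to 3.67 (Fstl1), and 10 genes are marked higher in SI and 5 higher in COL.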

How the data were processed

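Crypt RNA of 4 SI and 4 COL samples was sequenced on an Illumina HiSeq4000. The authors trimmed the reads, aligned them to the mouse genome (mm10 in the methods, while the submitters' processing notes list mm9 too) and counted them per gene; the notes name Trimmomatic 0.36 and STAR 2.5.2b. They deposited whole-number counts per Ensembl gene without normalization. The annotation release and the use of strand are not given in the sources used here. Symbols, coordinates and exon lengths were taken from GENCODE M21 (GRCm38), and 563 identifiers had no match.

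Counts were tested with edgeR 4.0.16 in R 4.3.3 (TMM, filterByExpr with a minimum count of 10, quasi-likelihood test, SI against COL), with p-values adjusted by Benjamini-Hochberg over 14491 genes. Within-library ratios used an offset of 0.1 CPM and an exact permutation test over 70 assignments. The alternatives were library size alone, DESeq2 1.42.0, limma 3.58.1 (voom), the donor mouse as a block, other filters, the mitochondrial share class as a term, an offset of 1 CPM, the longest transcript as length, and leaving out each library. The members and lists were chosen with earlier results of these data known. All members, all listed pathway genes past the threshold, defining markers, and the 2 genes most like each member are named, except for items that are not reported here.

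Libraries were paired by the donor mouse that the labels name. The correlations of deviations from the tissue means within mice 1, 2, 3 and 5 were -0.24, 0.39, -0.08 and 0.33. Libraries of a tissue differed by far more than sampling noise. Precision is limited by the spread between 4 mice, and for Bmp4 and other genes with few reads by counting error.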

Additional observations from a re-analysis of the deposited data

How the results depend on the processing

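Of the alternative values, 329 kept the direction and the side of the threshold or stayed within the spread, 19 moved beyond it, 13 reversed, 4 lost a call and 3 gained one. Tgfbr2 passed in all 16 fits, with -2.47 to -2.11 when 1 library was left out. With the donor mouse as a replicate block in edgeR, 3 members, 15 genes of the wider list and 4072 genes in all were called, and the block changed no member's call except for Id3 in limma-voom (1.33).

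With library size alone, 1 member was called (0 higher in SI), in the wider list 3 genes higher in SI and 11 higher in COL, and over all genes 1115 and 4788. Bmp2 (-0.32), Bmpr2 (-0.36), Smad6 (-0.67) and Id1 (-0.44) reversed, and Bmpr1a (0.13) and Id2 (0.85) lost their calls. Smad6 was also at -0.003 in DESeq2, -0.021 without a filter and -0.074 with at least 10 counts in every library. Without a filter Bmpr1a (0.83) lost its call, which left 1 member higher in SI. The wider list had 9 genes higher in COL in DESeq2, 9 without a filter and 8 with the mitochondrial class, under which Id3 (1.28) passed. The causes of these changes were not tested.

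When 1 library was left out, 2 to 4 members were called, 1 to 3 of them higher in SI, and 9 to 15 genes of the wider list, with 5 to 10 higher in SI and 4 to 7 higher in COL. Log2 fold changes ranged from 0.80 to 0.98 for Bmpr1a (lost without SI4), 0.60 to 0.95 for Smad7 (passing without SI2), -0.14 to 0.16 for Smad6, 1.42 to 1.88 for Id2 and 0.76 to 1.57 for Id3. The Bmp2 to Bmp4 ratio was 0.28 with an offset of 1 CPM and -0.47 to 0.42 with 1 library left out. By the longest transcript, mean TPM was 3.41 for Bmp2 in SI and 2.24 and 2.79 for Bmpr2 in SI and COL. With 4 mice, exact sign-flip tests of the ratios cannot go below p = 0.125.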

Other observations

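Some pathway genes with too few reads for the test still had counts that did not overlap between the tissues. They were picked after their counts were seen and were not tested. Chrd, a secreted antagonist of BMPs, had 5 to 23 counts in the COL libraries and 0 in each SI library, where a count of 0 allows up to 3. Eng, a TGF-beta co-receptor known from endothelium, had 9 to 18 counts in COL and 0 to 2 in SI. Id4, the remaining gene of the Id family, had 67, 9, 2 and 21 counts in COL1 to COL4 and 2 to 6 in SI, and these overlapped.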
